A study of Mus musculus with 48 samples.

Results

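The antioxidant and glutathione enzymes of the mouse brain were followed across spaceflight and treatment with BuOE. They are 61 of the 15782 genes in the Q3-normalized tables, chosen by symbol alone: superoxide dismutases and catalase (3 genes), peroxiredoxins and sulfiredoxin (7), glutathione peroxidases (5), thioredoxins with their reductase and Txnip (4), thioredoxin-domain and thioredoxin-like genes (7), glutaredoxins (4), genes of glutathione synthesis and reduction (4), glutathione S-transferases (16), quinone reductases and heme oxygenases (4), the regulators Nfe2l1, Nfe2l2 and Keap1 (3) and methionine sulfoxide reductases (4). The rule reads symbols and no measured values, and was set with earlier results of these data known.

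Superoxide dismutases turn superoxide into hydrogen peroxide, which catalase, peroxiredoxins and glutathione peroxidases then remove. Peroxiredoxins are recharged by thioredoxin and glutathione peroxidases by glutathione, both at the expense of NADPH. The transcription factor Nrf2, the product of Nfe2l2, is held back by Keap1 and drives many of these genes from antioxidant response elements when oxidants or electrophiles release it. BuOE (MnTnBuOE-2-PyP5+) is a manganese porphyrin with the activity of a superoxide dismutase, so the comparisons of BuOE with saline come first here.

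The study compared 4 groups of 3 male C57BL/6 mice: FLT-SAL (flight, saline), FLT-BuOE (flight, BuOE), GC-SAL (ground control, saline) and GC-BuOE (ground control, BuOE). The mice, aged 10 weeks when the mission began, lived for 35 days on the International Space Station or in flight hardware cages on Earth, with the ground protocol running 3 days behind. BuOE was injected subcutaneously at 1 mg/kg in 0.2 mL, for the first time 7 days ahead of launch and weekly from then on, and flight mice arrived at the laboratory no later than 20 h after splashdown. GeoMx digital spatial profiling was used to read 1 area of illumination (AOI) in each of 4 regions of every mouse, Cornu Ammonis 1 (CA), dentate gyrus (DG), frontal cortex (FCT) and cortex (CT), giving 48 AOIs. The AOIs held whole tissue with neurons, glia and vessels, so fewer cells of a type and less RNA per cell cannot be told apart. The sections of a group shared a slide, and slides and groups cannot be told apart.

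The AOIs held from 322629 to 1579380 probe counts (median 652040). The FLT-SAL AOIs were the deepest, with a median of 991426 against medians of 548888 to 639735 in the other groups. They also held the most nuclei, with a median of 579.5 against medians of 426.5 to 468. The CT AOI of GC-SAL mouse 1 held the fewest nuclei (140), and the DG AOI of GC-BuOE mouse 3 had the lowest sequencing saturation (81.7%). A member was read by a single probe, and the median member had from 12 to 65 counts in an AOI. The negative-control probes were highest in CA, at a mean of 18.6 Q3-normalized counts, and lowest in DG, at 11.2, with FCT at 14.2 and CT at 14.8 (n = 12 AOIs each). The regions carried their own markers: the 6 dentate granule cell markers measured were all called higher in DG than in CA, the 5 CA1 pyramidal markers were all called lower in DG, and the cortex markers Fezf2 and Lamp5 were called lower in the hippocampus than in the cortex.

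Members differed widely in how far they stood above background. Over all AOIs, 50 of the 61 averaged at least 1.5 times the negative control (87.6% of all genes did so), 10 were at 3 times or more, and 35 were under 2 times. The median was 1.91 times for the members and 1.94 times for all genes, so genes in general were also near background. The levels below are mean Q3-normalized counts over 48 AOIs, given for up to 3 members of a role. Each gene had its own probe and probes differ in efficiency, so no order between genes is read from them. Sod1, the cytosolic copper and zinc enzyme, averaged 107 counts, Sod2, its mitochondrial manganese counterpart, 72.9, and Cat, the peroxisomal catalase, 30.5. Prdx5, Prdx2 and Prdx1 averaged 89.0, 59.0 and 35.5 counts. Among glutathione peroxidases, Gpx4, which reduces lipid hydroperoxides in membranes, reached 124 counts, Gpx1 43.4 and Gpx5 24.0.

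The glutathione S-transferases, which conjugate glutathione to electrophiles, included Gstp1 (107), Gstm1 (58.9) and Gstm5 (50.8). Gclm and Gclc, the subunits of the enzyme that commits glutamate and cysteine to glutathione, averaged 32.3 and 30.2 counts, and glutathione reductase (Gsr) 30.9. Glutaredoxins read 45.7 (Glrx3), 37.6 (Glrx2) and 28.8 (Glrx5). The thioredoxin inhibitor Txnip averaged 27.7, thioredoxin itself (Txn1) 26.4 and its mitochondrial form (Txn2) 25.6. The thioredoxin-like genes Txndc16, Txndc9 and Txnl1 averaged 36.7, 33.6 and 29.2 counts. Nqo1, Hmox2 and Nqo2 averaged 31.3, 28.1 and 26.6. Nfe2l1, a relative of Nrf2 anchored in the endoplasmic reticulum, averaged 94.8 counts, Nfe2l2 28.6 and Keap1 27.0. Of the methionine sulfoxide reductases, which repair oxidized methionine, Msra averaged 43.7, Msrb1 24.0 and Msrb2 23.6. Sod1, Sod2, Gpx4, Gstp1, Prdx5 and Nfe2l1 were thus read well above background, at 4.9 to 8.4 times the negative control, while Msrb1 stood at 1.63 times.

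The antioxidant response element links many of these genes to Nrf2, and its core, TGACNNNGC, was searched on both strands of the 250 bases upstream of each start site in RefSeq promoters (GRCm38.p6). It was the sole motif searched. It occurred in 8 of the 51 members with a promoter entry (15.7%) against 11.5% of all 27025 gene symbols: Gclm, Gsta3, Gstm5, Gstm7, Nfe2l2, Prdx1, Sod1 and Txnrd1. The stretches of 5 of them, chosen because their values are described below or because Gclm is a classical Nrf2 target, are given 5′ to 3′ on the strand of the gene, with the match in capitals (read as GCNNNGTCA where it lies on the opposite strand).
Sod1, chr16:90220681-90220739, plus strand: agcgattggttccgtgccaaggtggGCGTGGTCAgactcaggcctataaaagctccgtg
Prdx1, chr4:116685441-116685499, plus strand: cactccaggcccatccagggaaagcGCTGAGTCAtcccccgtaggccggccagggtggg
Nfe2l2, chr2:75704870-75704913, minus strand: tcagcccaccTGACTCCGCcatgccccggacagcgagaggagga
Gstm5, chr3:107895787-107895845, plus strand: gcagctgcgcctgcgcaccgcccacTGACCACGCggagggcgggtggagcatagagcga
Gclm, chr3:122245398-122245456, plus strand: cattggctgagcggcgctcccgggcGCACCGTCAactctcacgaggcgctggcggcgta
The match begins 56 bases ahead of the start site in Sod1, 133 in Prdx1, 240 in Nfe2l2, 42 in Gstm5 and 134 in Gclm. A match describes the letters in the window and does not show a bound site.

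Whether BuOE changed the expression of these enzymes in flight was asked by comparing FLT-BuOE with FLT-SAL. On the mean of the 4 regions of each mouse, 0 of the 61 members passed the test (limma, adjusted p below 0.05 and more than a 1.5-fold change), against 0.0317% of all genes. At an unadjusted p below 0.05 there were 4 members, all lower with BuOE, where 7.9% of all genes reached that level and 6.06% were lower. edgeR on summed counts called 0 members and had 3 at that level. All log2 differences of the 61 members lay between -0.33 and 0.14, and each of their 95% intervals stayed inside a 1.5-fold change either way, with a median half-width of 0.24. With the negative control of each AOI subtracted, which widens the differences of genes near background, this held for 33 of the 61.

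Sod1 lies at chr16:90220754-90226329 (GRCm38) and is the enzyme whose reaction BuOE mimics. Its mean Q3-normalized counts over the 4 regions were 107, 118 and 121 in the FLT-SAL mice and 104, 125 and 103 in the FLT-BuOE mice. The groups overlapped, and the log2 difference was -0.06 (SE 0.10, 95% interval -0.27 to 0.14, adjusted p = 0.936). Sod2 (chr17:13006846-13040063) read 81.8, 81.0 and 79.2 counts in FLT-SAL and 62.3, 84.8 and 71.6 in FLT-BuOE. Its BuOE mice spread on either side of the tightly grouped saline mice, and the log2 difference of -0.17 (SE 0.10, 95% interval -0.37 to 0.03) did not pass (adjusted p = 0.700). It was -0.07 without FLT-BuOE mouse 1 and -0.28 without FLT-BuOE mouse 2. Cat differed by -0.00 (SE 0.12, 95% interval -0.24 to 0.23) on the same scale.

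Msrb1 (chr17:24736642-24742778), a selenoprotein that reduces methionine-R-sulfoxide, read 25.2, 30.3 and 25.7 counts in FLT-SAL and 27.4, 25.6 and 24.0 in FLT-BuOE. The values interleaved, with a log2 difference of -0.08 (SE 0.13, adjusted p = 0.939). It became 0.00309 when FLT-SAL mouse 2 was left out.

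**Figure D1:**
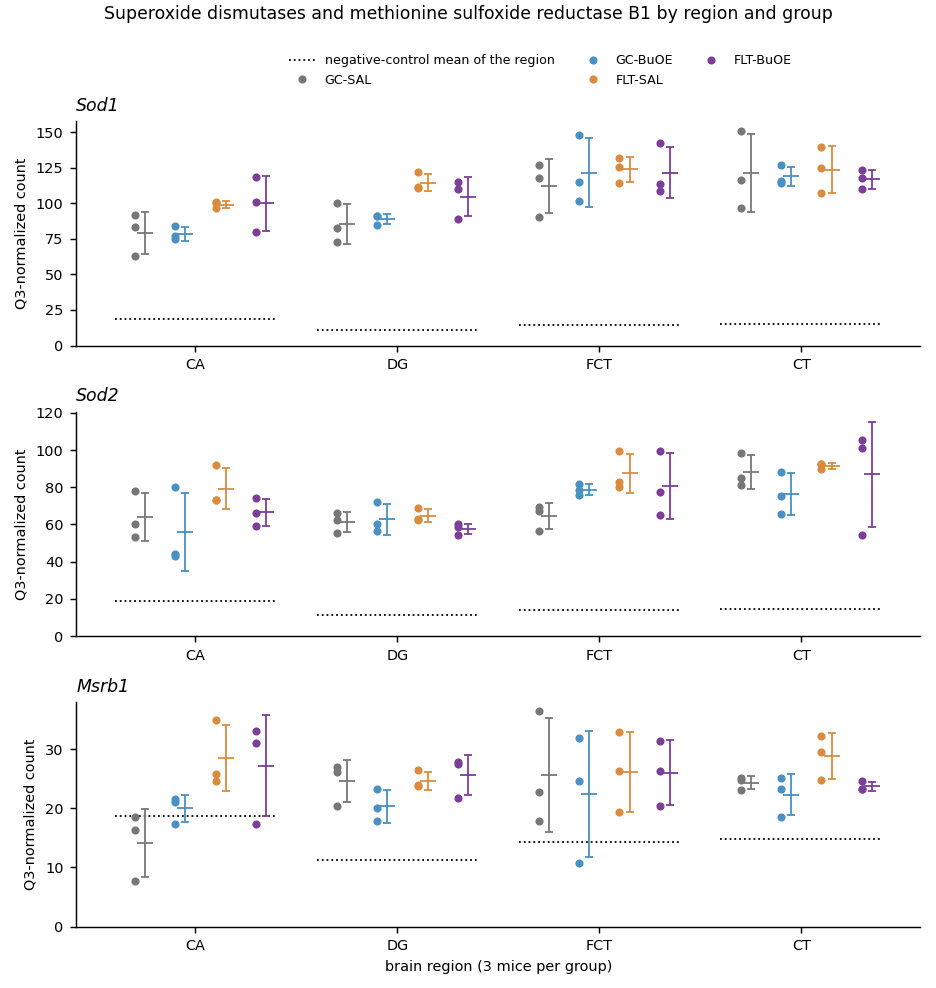
Q3-normalized counts of Sod1, Sod2 and Msrb1 (vertical axes, from 0) in CA, DG, FCT and CT (horizontal axis), with a point per mouse, bars for the mean and SD of 3 mice, and a dotted line at the mean of the negative-control probes of the region. Sod1 and Sod2 stand well above the dotted line everywhere, and Msrb1 in CA lies between 7.62 and 34.9 around a negative control of 18.6.

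The smallest p-values in flight belonged to Prdx6 and Gstm2. Prdx6 (chr1:161240112-161251219), a peroxiredoxin that reduces phospholipid hydroperoxides, read 33.0, 34.5 and 37.3 counts in FLT-SAL and 26.3, 25.8 and 30.7 in FLT-BuOE. No BuOE mouse reached the lowest saline mouse, and the log2 difference of -0.33 (SE 0.12) had an adjusted p of 0.366. Gstm2 (chr3:107981702-107986453), a mu-class glutathione S-transferase, read 28.9, 30.0 and 26.5 counts in FLT-SAL against 21.8, 23.0 and 23.0 in FLT-BuOE. These groups did not overlap either, and the log2 difference of -0.32 (SE 0.12) had an adjusted p of 0.444. Non-overlap of this kind occurred for 10 of the 61 members and for 13% of all genes. Glrx5 (-0.27) and Prdx1 (-0.22) were the other two members with an unadjusted p below 0.05, and both were named after their values were seen.

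Most members were slightly lower with BuOE in flight, as were most genes. The log2 difference was above 0 for 11 of the 61 members (37.3% of all genes), with a median of -0.07 for the members and -0.04 for all genes. By role, 0 of 3 superoxide dismutases and catalase, 1 of 7 peroxiredoxins and sulfiredoxin (median -0.20), 1 of 5 glutathione peroxidases, 0 of 4 thioredoxin genes, 0 of 7 thioredoxin-like genes, 2 of 4 glutaredoxins, 1 of 4 glutathione synthesis genes, 4 of 16 glutathione S-transferases (median -0.06), 1 of 4 quinone reductases and heme oxygenases, 1 of 3 regulators and 0 of 4 methionine sulfoxide reductases were above 0. The 8 members with the response element core ranged from -0.22 to 0.07, with 2 above 0. Left-out mice moved the count of members at an unadjusted p below 0.05 from 4 to between 2 (without FLT-SAL mouse 2, with 5.25% of all genes) and 11 (without FLT-BuOE mouse 2, with 9.33% of all genes).

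Oligodendrocyte markers moved with this comparison. Of 9 listed, 8 were measured, none was at 0 in any AOI, and each averaged at least 1.5 times the negative control. Their summed level per mouse (mean of 4 regions) ranged from 940 to 1239 in FLT-SAL and from 634 to 784 in FLT-BuOE, and on the ground from 627 to 756 in GC-BuOE and from 700 to 789 in GC-SAL, so that FLT-SAL did not overlap with any other group. In CT, Mobp, Mbp and Cldn11 were among those called lower with BuOE in flight. Of the 12 marker lists summed in this way, 4 were lower with BuOE without overlap and 1 was higher. Beside oligodendrocyte markers, the lower ones were the 5 interneuron markers (185 to 216 against 226 to 270 in FLT-SAL), the 5 CA1 pyramidal markers (233.98 to 280.45 against 280.5 to 298.73) and the 1 blood marker (49.9 to 51.3 against 57.2 to 65.3). The 6 cortex markers were higher, at 262 to 320.28 against 243 to 247. The part of these cells in the members' differences was not tested.

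Within single regions, 0 of the 244 member-region pairs were called in flight (limma, 0.0269% of all gene-region pairs), with 12 pairs at an unadjusted p below 0.05 (6.14% of all pairs). edgeR had 15 and DESeq2 7 at that level, and both called 0. The intervals were wide here: only 28 members in CT, 26 in FCT, 21 in DG and 16 in CA had a 95% interval inside a 1.5-fold change either way. The strongest pair was Nfe2l2 (chr2:75675513-75704641) in FCT, at 34.9, 30.0 and 33.7 counts in FLT-SAL and 21.4, 18.7 and 15.0 in FLT-BuOE. The log2 difference was -0.82 (SE 0.21, adjusted p = 0.151), with every BuOE mouse below every saline mouse. The FCT negative control was also lower in these BuOE mice, at 12.1 to 13.0 against 15.2 to 18.0, and its part in the Nfe2l2 value was not tested.

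In CA the smallest p belonged to Txnip, at 38.8, 33.9 and 30.0 counts in FLT-SAL and 26.2, 19.3 and 10.4 in FLT-BuOE (log2 difference -0.92, SE 0.31, adjusted p = 0.722). With a mouse left out, the Txnip difference ran from -1.20 to -0.58. In DG it belonged to Prdx1, a cytosolic peroxiredoxin, at 46.7, 30.1 and 40.7 against 20.0, 30.0 and 23.3 (-0.66, SE 0.21, adjusted p = 0.432). In CT it belonged to Gstp1, the pi-class transferase, at 129.5, 151 and 118 against 105, 117 and 80.0 (-0.41, SE 0.17, adjusted p = 0.754). In each of these pairs the BuOE mice were all lower, by a narrow margin for Prdx1 and Gstp1, and in none did the difference pass the test. The pairs were picked for their small p. Non-overlap occurred in 39 of the 244 member-region pairs in flight. Its share over all pairs was not counted, so no trait of the members is read from it.

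**Figure D2:**
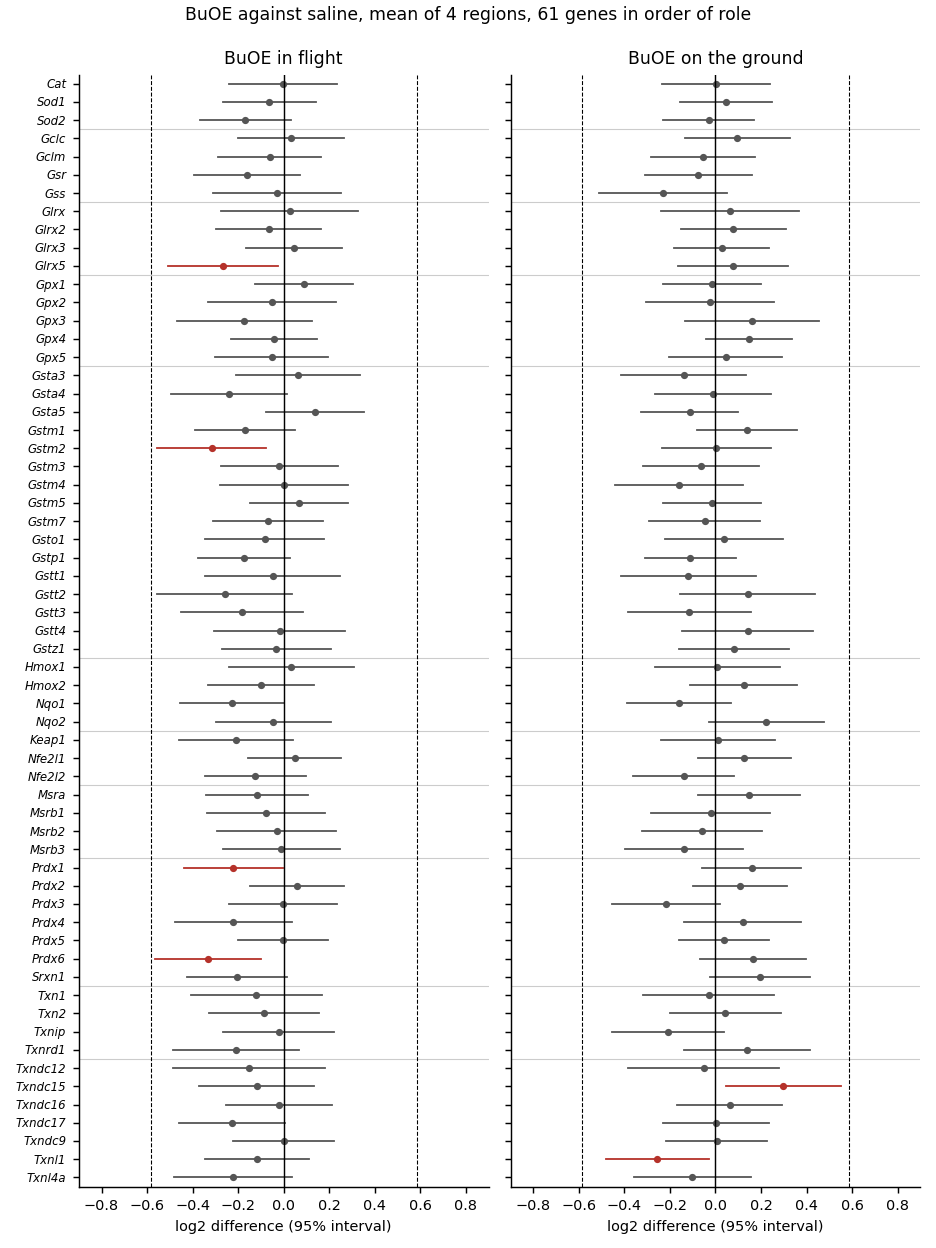
Log2 differences (horizontal axes) of the 61 genes on the mean of 4 regions, BuOE minus saline in flight (left) and on the ground (right), with 95% intervals. Genes are in order of role, separated by grey lines, dashed lines mark a 1.5-fold change and red marks an unadjusted p below 0.05 (4 genes in flight and 2 on the ground). Every interval lies inside the dashed lines.

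On the ground, GC-BuOE was compared with GC-SAL to see what BuOE did without flight. No member was called on the mean of the 4 regions (limma, 0 of 61, and 0% of all genes), and 2 members had an unadjusted p below 0.05 (4.41% of all genes). edgeR likewise called 0 and had 2. The count of 2 rested on few mice, becoming 4 once mouse 3 of either group was left out (4.46% of all genes for GC-BuOE and 5.02% for GC-SAL). It became 3 when GC-SAL mouse 2 was left out (5.69%) and 1 when GC-BuOE mouse 2 was (4.46%). Of the 12 marker lists, dentate granule cell markers were higher with BuOE without overlap (255 to 273 against 239.67 to 252) and choroid plexus markers lower (83.7 to 97.0 against 101 to 112), and their part was not tested. The log2 difference was above 0 for 34 of 61 members (48.6% of all genes), with a median of 0.00 among members and of -0.00 among all genes, and again every 95% interval lay inside a 1.5-fold change either way. With the negative control subtracted this held for 42.

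Sod1 read 95.1, 117 and 85.9 counts in GC-SAL and 101, 109 and 96.3 in GC-BuOE (log2 difference 0.05, SE 0.10, 95% interval -0.16 to 0.25). Sod2 read 66.0, 73.9 and 68.4 against 67.0, 70.1 and 68.2 (-0.03, SE 0.10, 95% interval -0.23 to 0.17). Msrb1 read 21.4, 18.9 and 26.2 against 20.1, 23.1 and 20.6 (-0.02, SE 0.13, 95% interval -0.28 to 0.24). For all of them the BuOE mice lay inside or across the range of the saline mice.

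Txndc15, which encodes a thioredoxin-domain protein, had the smallest p on the ground, with 21.0, 26.1 and 21.8 counts in GC-SAL and 32.1, 26.8 and 25.9 in GC-BuOE (log2 difference 0.30, SE 0.13, adjusted p = 0.998). Txnl1, a thioredoxin-like protein tied to the proteasome, read 30.9, 32.5 and 30.6 against 26.0, 26.4 and 27.8 (-0.26, SE 0.11, adjusted p = 0.998). The Txnl1 values did not overlap, as was so for 6 of the 61 members and 9.12% of all genes, and those of Txndc15 overlapped.

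Of the 244 member-region pairs on the ground, 0 were called (limma, 0.00158% of all pairs) and 18 had an unadjusted p below 0.05 (5.05% of all pairs), with 11 by edgeR and 6 by DESeq2, which also called 0. In CA, Gstp1 read 89.3, 112 and 90.4 counts in GC-SAL and 59.0, 58.7 and 79.0 in GC-BuOE (log2 difference -0.57, SE 0.17, adjusted p = 0.659). In DG, Gstt4, a theta-class transferase, read 13.8, 22.3 and 20.0 against 33.4, 31.3 and 32.2 (0.78, SE 0.27, adjusted p = 0.812). In FCT, Txndc15 read 21.1, 18.8 and 23.5 against 40.02, 28.9 and 30.9 (0.62, SE 0.22, adjusted p = 0.752). In CT, Gstt2, of the same class as Gstt4, read 9.70, 16.5 and 18.6 against 26.3, 22.7 and 25.4 (0.74, SE 0.27, adjusted p = 1.00). The groups did not overlap in any of these pairs, which were picked for their small p. Non-overlap occurred in 28 of the 244 member-region pairs on the ground. Its share over all pairs was not counted, so no trait of the members is read from it. Gstt4 and Gstt2 are also among the members with the lowest levels, at 1.38 and 1.33 times the negative control over all AOIs.

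**Figure D3:**
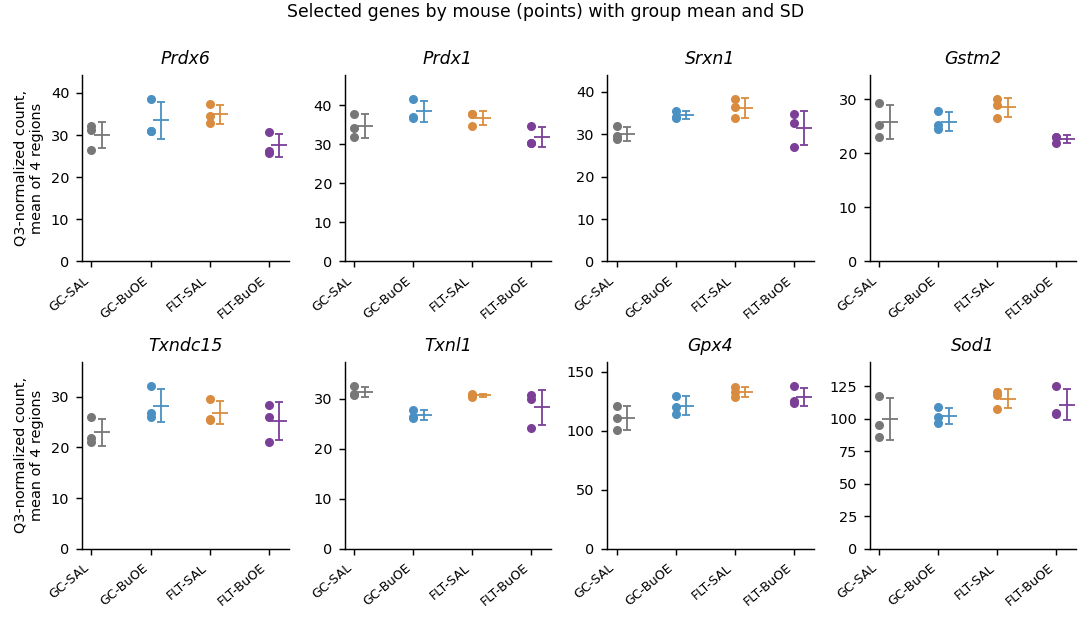
Q3-normalized counts of 8 genes, each point the mean of 4 regions of a mouse, with bars for the mean and SD of the 3 mice of a group (vertical axes from 0, groups along the horizontal axes). Prdx6 and Gstm2 read lowest in FLT-BuOE, Txnl1 lowest in GC-BuOE, and Gpx4 and Sod1 have their highest group mean in FLT-SAL.

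The interaction asks whether the difference between BuOE and saline was another one in flight than on the ground. No member passed on the mean of the 4 regions (limma, 0 of 61 at an adjusted p below 0.05, and 0% of all genes), nor did any by edgeR, and 5 had an unadjusted p below 0.05 by either tool (6.27% of all genes in the limma fit). All 5 were negative, as were 4.38% of all genes at that level: Prdx6 (-0.50, SE 0.17, adjusted p = 0.503), Txndc15 (-0.42, SE 0.18), Srxn1 (-0.40, SE 0.15), Prdx1 (-0.38, SE 0.15) and Glrx5 (-0.35, SE 0.17). Srxn1, sulfiredoxin, which restores overoxidized peroxiredoxins, read 38.3, 36.4 and 33.7 counts in FLT-SAL, 34.8, 32.7 and 27.1 in FLT-BuOE, 28.8, 29.6 and 31.9 in GC-SAL and 33.8, 34.0 and 35.6 in GC-BuOE. Prdx6 read 26.4, 31.2 and 32.1 in GC-SAL and 31.0, 31.0 and 38.6 in GC-BuOE, and Prdx1 read 34.3, 37.9 and 31.8 against 36.9, 41.7 and 37.0. Among the 7 peroxiredoxins and sulfiredoxin, 1 interaction term was above 0 (Prdx3) and the median was -0.34, while over all members 16 of 61 were above 0, against 42.1% of all genes, whose median was -0.03. These members were named after their values were seen. The count of 5 was 8 without GC-SAL mouse 2 (7.52% of all genes) and between 4 and 7 with any other mouse left out. Within the regions, 0 of 244 pairs were called (0.00792% of all pairs) and 22 had an unadjusted p below 0.05 (5.51% of all pairs), with 22 by edgeR and 8 by DESeq2, which also called 0.

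Flight itself was compared under saline (FLT-SAL against GC-SAL) and under BuOE (FLT-BuOE against GC-BuOE). Each of these shares its groups of mice with the BuOE comparisons, so values are given side by side and are not independent of them. Under saline, no member was called on the mean of the 4 regions (limma, 0 of 61, with 0.101% of all genes called), but 17 members (27.9%) had an unadjusted p below 0.05, 14 of them higher and 3 lower in flight. Among all genes 8.79% reached that level, 5.84% higher and 2.95% lower. The log2 difference was above 0 for 44 of 61 members (53.4% of all genes), with a median of 0.06 against 0.01. edgeR called 0 members and had 11 at an unadjusted p below 0.05.

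The count of 17 depended on single mice. With FLT-SAL mouse 2 left out it was 8 (6.39% of all genes), and with FLT-SAL mouse 3 left out 7 (6.03%). Leaving out GC-SAL mouse 1 gave 7 (7.45%), and leaving out GC-SAL mouse 3 gave 10 (8.31%). The number of members above 0 stayed between 41 and 45 when any mouse was left out. FLT-SAL was also the group with the deepest AOIs and with the highest sum of oligodendrocyte markers, of which Mobp was called higher in flight under saline on the mean of the regions. Dentate granule cell markers (266 to 285 in FLT-SAL against 239.67 to 252 in GC-SAL) and CA1 pyramidal markers (280.5 to 298.73 against 241 to 265) were also higher in flight without overlap, and cortex markers were lower (243 to 247 against 253 to 267). The part of depth, of the number of nuclei and of these markers was not tested. All members together made up 0.355% to 0.367% of the Q3-normalized counts in the FLT-SAL mice, 0.341% to 0.365% in FLT-BuOE, 0.347% to 0.350% in GC-BuOE and 0.333% to 0.355% in GC-SAL.

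The 14 members that were higher, named after their values were seen, came from most roles: Sod1 (0.24) and Sod2 (0.22), Gpx4 (0.26) and Gpx3 (0.33), Prdx5 (0.23), Prdx6 (0.25) and Srxn1 (0.27), Txn2 (0.27), Txndc17 (0.34) and Txndc15 (0.25), Gstp1 (0.27), Gstm5 (0.25) and Gstt2 (0.32), and Msrb1 (0.33), as log2 differences on the mean of the 4 regions. The lower ones were the glutathione S-transferases Gstm4 (-0.33), Gstm3 (-0.31) and Gsta5 (-0.24). Adjusted p-values of these 17 ran from 0.202 (Txndc17) to 0.566 (Txndc15). Gpx3, Gstt2 and Gstm4 were near background, at 1.44, 1.33 and 1.48 times the negative control over all AOIs.

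Sod1 read 107, 118 and 121 counts in FLT-SAL against 95.1, 117 and 85.9 in GC-SAL, overlapping through GC-SAL mouse 2 (SE 0.10, 95% interval 0.04 to 0.44, adjusted p = 0.404). Its log2 difference of 0.24 was 0.37 without that mouse and 0.15 without GC-SAL mouse 3. Sod2 did not overlap, at 81.8, 81.0 and 79.2 against 66.0, 73.9 and 68.4 (SE 0.10, 95% interval 0.02 to 0.42, adjusted p = 0.470). Gpx4 (chr10:80047166-80056439) did not overlap either, at 129, 138 and 133 against 121, 111 and 101 counts (SE 0.09, 95% interval 0.08 to 0.45, adjusted p = 0.239). Non-overlap occurred for 13 members and for 14.8% of all genes in this comparison.

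By region, the larger Sod1 differences lay in the hippocampus. In DG, Sod1 read 110.4, 122 and 111 counts in FLT-SAL and 82.8, 101 and 73.0 in GC-SAL, without overlap (log2 difference 0.43, SE 0.15, adjusted p = 0.299). In CA, it read 96.5, 101 and 100.1 against 63.1, 91.5 and 83.0 (0.34, SE 0.17, adjusted p = 0.756). In FCT it read 114, 126 and 132 against 118, 127 and 90.6, and in CT 107, 125 and 139.6 against 116, 151 and 96.8, with overlap in both (0.16 and 0.04). Whether the difference of Sod1 was another one between regions was not tested. Under saline, 33 of the 244 member-region pairs did not overlap. The share over all pairs was not counted, so no trait of the members is read from this.

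With BuOE, Sod1 read 80.0, 119 and 101 counts in FLT-BuOE and 84.3, 74.7 and 76.8 in GC-BuOE in CA, and 110.1, 115 and 88.9 against 91.2, 85.0 and 91.2 in DG. In FCT the values were 109, 142 and 114 against 115, 148 and 102, and in CT 117, 123 and 110.1 against 114, 127 and 115. These groups overlapped in every region.

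Sod2 read 80.0, 99.3 and 82.7 counts in FLT-SAL and 67.4, 56.5 and 69.5 in GC-SAL in FCT, without overlap (log2 difference 0.43, SE 0.16, adjusted p = 0.718). In CA it read 91.8, 72.9 and 73.1 against 60.0, 78.1 and 53.4, in DG 63.0, 62.4 and 68.6 against 55.2, 62.4 and 66.0, and in CT 92.4, 89.6 and 92.4 against 81.3, 98.5 and 84.7. The FLT-BuOE and GC-BuOE mice read 59.3, 74.1 and 66.1 against 44.2, 80.0 and 43.3 in CA, and 58.4, 60.0 and 54.5 against 60.0, 56.3 and 72.3 in DG. In FCT they read 77.2, 99.6 and 65.0 against 75.7, 78.6 and 81.9, and in CT 54.2, 106 and 101 against 88.1, 65.4 and 75.4. FCT under saline was the only one of these 8 comparisons of Sod2 without overlap.

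Msrb1 showed its largest difference in CA under saline, at 25.9, 34.9 and 24.6 counts in FLT-SAL and 18.5, 7.62 and 16.3 in GC-SAL (log2 difference 1.03, SE 0.32, 95% interval 0.39 to 1.67, adjusted p = 0.253). The groups did not overlap, but all GC-SAL values lay at or below the negative control of those AOIs (17.7 to 19.3), and 4 of the 12 CA AOIs had Msrb1 above 1.5 times it. The study itself called Msrb1 differentially expressed in CA on these samples and listed it among the largest fold changes there. It used an unpaired t-test with permutation q-values, which was not run here and differs from the limma test that Msrb1 did not pass. The size of Msrb1 in CA is thus no independent evidence. In the other regions Msrb1 read 23.7, 23.9 and 26.4 against 26.2, 20.5 and 27.0 (DG), 26.3, 32.9 and 19.3 against 17.9, 22.8 and 36.5 (FCT) and 24.7, 29.5 and 32.3 against 23.0, 24.8 and 25.1 (CT). These overlapped.

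With BuOE, Msrb1 in CA read 33.1, 31.1 and 17.4 counts in FLT-BuOE and 21.1, 17.3 and 21.6 in GC-BuOE, with overlap. It read 21.7, 27.5 and 27.8 against 23.3, 20.0 and 17.8 in DG, 31.4, 20.5 and 26.3 against 10.8, 31.9 and 24.6 in FCT, and 23.2, 23.3 and 24.6 against 25.2, 23.3 and 18.5 in CT. On the mean of the regions, its log2 difference was 0.28 (SE 0.13, adjusted p = 0.504) under BuOE, beside 0.33 (SE 0.13, adjusted p = 0.340) under saline. Without GC-SAL mouse 2 the Msrb1 difference under saline was 0.20 on the mean of the regions and 0.67 in CA.

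Under BuOE, 0 of 61 members were called for flight on the mean of the 4 regions (limma, with 0.0887% of all genes called), 9 had an unadjusted p below 0.05 (14.8%, against 9.31% of all genes), and edgeR called 0 and had 5. The count of 9 depended on single mice, at 3 without FLT-BuOE mouse 1 (9.31% of all genes) and 5 without FLT-BuOE mouse 2 (8.69%), GC-BuOE mouse 2 (8.37%) or GC-BuOE mouse 3 (7.76%), against 12 without FLT-BuOE mouse 3 (10.4%). The log2 difference was above 0 for 28 of 61 members and 44.3% of all genes. Of the 9, 3 were higher in flight (3.59% of all genes): Gstm5 (log2 difference 0.33, SE 0.11, adjusted p = 0.249), Msrb1 (0.28) and Gstp1 (0.20). The 6 lower ones (5.72% of all genes) were Prdx4 (-0.35), Gstt4 (-0.33), Glrx5 (-0.29), Prdx1 (-0.29), Gstm3 (-0.27) and Prdx6 (-0.25). Gstm5 read 54.8, 56.8 and 60.5 counts in FLT-BuOE and 45.1, 45.9 and 45.7 in GC-BuOE, and Prdx4, the peroxiredoxin of the endoplasmic reticulum, 21.2, 18.3 and 22.9 against 25.3, 25.2 and 29.7, both without overlap (9 members and 12.9% of all genes). These genes too were named after their values were seen. In this comparison dentate granule cell markers were higher in flight without overlap (273.47 to 285 against 255 to 272.59) and interneuron markers lower (185 to 216 against 222 to 227), and their part was not tested.

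Prdx6 and Prdx1 had opposite signs in the 2 flight comparisons. Prdx6 differed by 0.25 under saline and -0.25 under BuOE, with an SE of 0.12 in each, and the interaction that tests this did not pass (adjusted p = 0.503). Sod1 differed by 0.24 under saline and 0.13 under BuOE, and Sod2 by 0.22 and 0.08, with SEs of 0.10 in each case and interaction terms of -0.11 (95% interval -0.40 to 0.18) and -0.14 (95% interval -0.42 to 0.14). Within regions, 0 of 244 pairs were called under saline (0.136% of all pairs called) and 18 had an unadjusted p below 0.05 (6.27% of all pairs), and under BuOE 0 were called (0.0459%) and 28 were at that level (7.39%). edgeR had 21 and 22 such pairs and DESeq2 8 and 8, with 0 called by either.

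**Figure D4:**
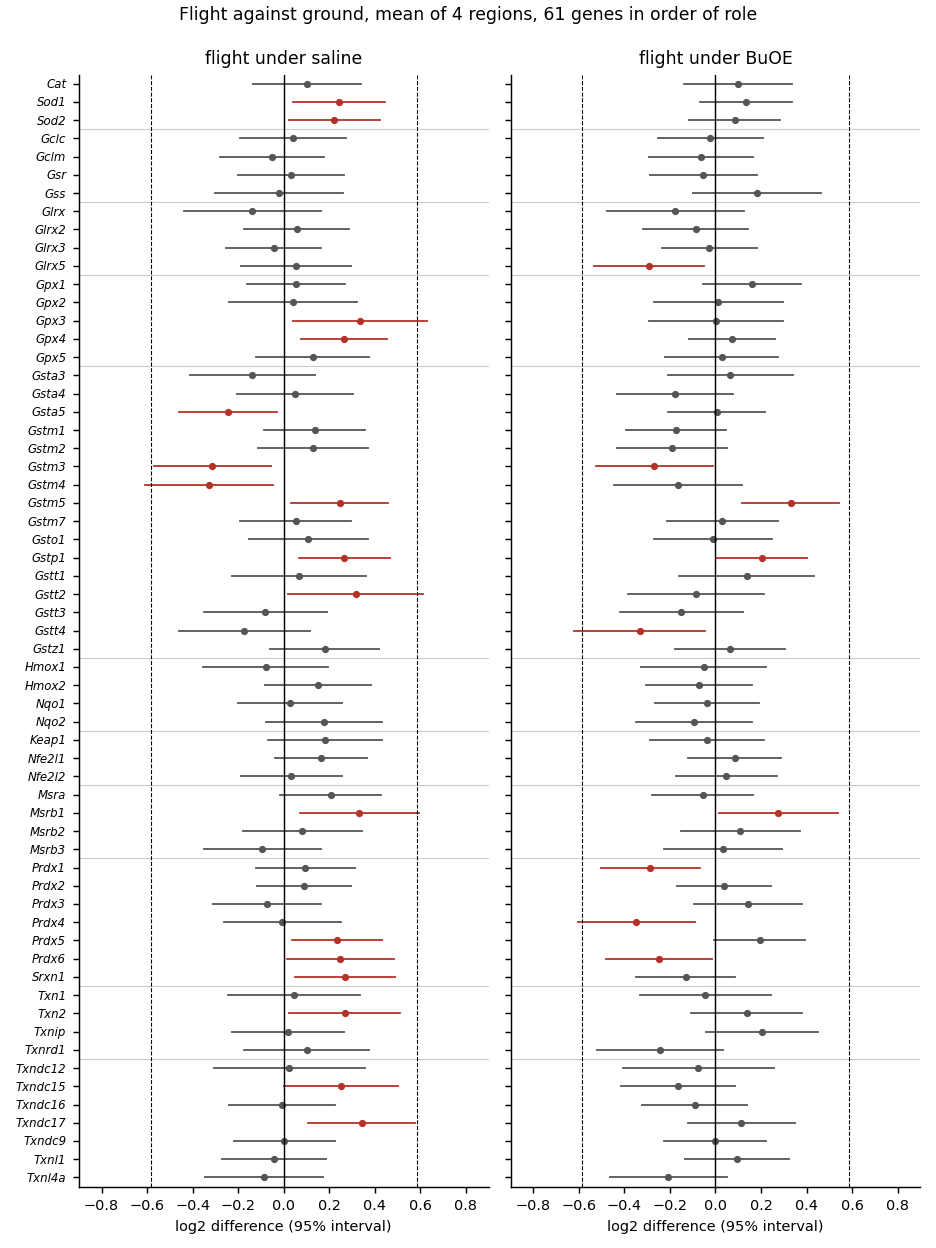
Log2 differences (horizontal axes) of the 61 genes on the mean of 4 regions, flight minus ground under saline (left) and under BuOE (right), with 95% intervals, in order of role. Dashed lines mark a 1.5-fold change and red marks an unadjusted p below 0.05. The left panel has 17 red genes, 14 to the right of zero, and the right panel 9, of which 3 are to the right.

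Regions were compared over all mice. Comparing the hippocampal AOIs (CA and DG) with the cortical ones (FCT and CT) over 48 AOIs with the mouse as a block, 1 of 61 members was called (3.18% of all genes). Gpx4 was lower in the hippocampus by 0.64 on the log2 scale (SE 0.05, adjusted p = 1.1e-19). It averaged 93.9 ± 13.4 counts in CA and 98.5 ± 9.34 in DG, against 151 ± 18.7 in FCT and 152 ± 22.1 in CT (SD, n = 12 mice). The CA range of 70.5 to 117 and the DG range of 82.8 to 112 overlapped the cortical ranges (110.7 to 185 in FCT and 109.8 to 183 in CT) only at their edges. With the negative control subtracted, 2 members were called (6.18% of all genes).

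Without the fold threshold, 18 of 61 members (29.5%) had an adjusted p below 0.05, against 22.7% of all genes, 14 lower and 4 higher in the hippocampus. The lower ones, named after their values were seen, included the regulator Nfe2l1 (-0.52), Gpx1 (-0.42), Sod1 (-0.36), Sod2 (-0.35), Prdx5 (-0.31), Gstp1 (-0.28), Gstm5 (-0.25) and Prdx2 (-0.22). Of the 10 members at 3 times the negative control or more, 8 were lower in the hippocampus at that level and 2 did not pass, Gstm1 (-0.06) and Glrx3 (0.03). The share among all genes with so strong a signal was not counted, so no trait of the members is read from this. At an unadjusted p below 0.05 (limma), 6 of 21 members were higher in the hippocampus, beside 2621 of 5153 among all genes. Sod1 averaged 89.2 ± 15.1 counts in CA and 98.4 ± 15.2 in DG, below the 119.8 ± 16.3 of FCT and the 120.2 ± 14.4 of CT. The means of FCT and CT are within their spread, and so are those of CA and DG. Sod2 averaged 66.4 ± 14.8, 61.6 ± 5.40, 77.8 ± 12.7 and 85.7 ± 14.9 counts in the same order.

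The 4 higher in the hippocampus were Hmox1 (0.32), the inducible heme oxygenase, Gstm7 (0.28), Msra (0.23) and Nfe2l2 (0.21). Hmox1 was near background, at 1.48 times the negative control over all AOIs. The filter at 1.5 times removed it before testing and left 3 members higher at an adjusted p below 0.05 (limma). With the negative control subtracted, the number higher at that level was also 3. Msrb1 averaged 22.5 ± 7.91 counts in CA and 23.8 ± 3.29 in DG, beside 24.8 ± 3.42 in CT and 25.1 ± 7.36 in FCT, within their spread of each other. Oligodendrocyte markers moved with this comparison, with 8 of 8 at an adjusted p below 0.05 and lower in the hippocampus (summed levels of 437 to 757 in CA and DG and 543 to 1935 in FCT and CT), as did 7 of 8 general neuron markers, and their part was not tested.

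Between DG and CA, 1 of 61 members was called (4.1% of all genes). Txndc12, a thioredoxin-like protein of the endoplasmic reticulum, was lower in DG by 0.64 on the log2 scale (SE 0.17, adjusted p = 0.0026), at 16.8 ± 6.68 counts against 25.5 ± 7.31 in CA. The negative control was likewise lower in DG (11.2 against 18.6), and as a ratio to it Txndc12 stood at 1.53 in DG and 1.36 in CA. The call was lost without FLT-BuOE mouse 3, FLT-SAL mouse 3, GC-BuOE mouse 2 or GC-SAL mouse 1 (log2 differences of -0.57 to -0.47) and with a pseudocount of 5 (-0.52), and with the negative control subtracted the difference was -0.04.

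Without the fold threshold, 10 members passed (16.4%, against 23.6% of all genes), with Gsta5 (0.36), Gstm1 (0.35), Srxn1 (0.33) and Prdx2 (0.31) higher in DG and Txndc12, Txndc15 (-0.40), Gclm (-0.40), Msra (-0.30), Gpx1 (-0.29) and Nfe2l1 (-0.24) lower. Gstm1 averaged 64.8 ± 10.7 counts in DG and 51.0 ± 11.9 in CA, and Prdx2 60.3 ± 6.05 against 48.7 ± 8.76. With the negative control subtracted, 26 members (42.6%) were called between DG and CA, beside 38.4% of all genes, and the median log2 difference moved to 0.48 for the members and for all genes alike. Under that setting Gpx1 and Txndc15 changed sign (to 0.019 and 0.042). All 39 members with an adjusted p below 0.05 (limma) were then higher in DG, so none of those listed as lower passed in that direction. At an unadjusted p below 0.05, 43 of 43 members were higher, beside 10226 of 10570 among all genes. Between CT and FCT, 0 members were called (limma, 0.101% of all genes called), 0 passed without the fold threshold (0.786% of all genes) and 5 had an unadjusted p below 0.05 (8.22% of all genes).

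**Figure D5:**
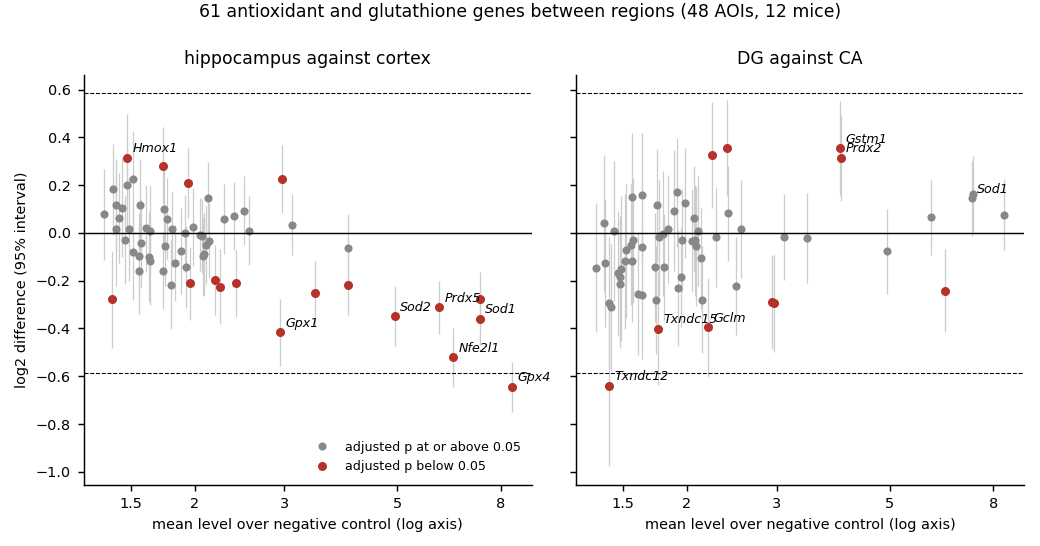
Log2 difference with its 95% interval (vertical axes) against the mean level as a multiple of the negative control (horizontal log axes) for the 61 genes, hippocampus minus cortex on the left and DG minus CA on the right (48 AOIs of 12 mice). Red marks an adjusted p below 0.05 and dashed lines mark a 1.5-fold change. On the left Gpx4 is lowest at -0.64, and on the right Txndc12 at -0.64 is the only one beyond a dashed line.

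The enzymes around this system were read from lists of pathway genes. On the mean of the 4 regions none was called in any comparison of groups (limma) among 12 genes of NADPH supply, 21 of glutathione supply and use, 20 Nrf2 partners and targets, 21 oxidant-producing enzymes and 22 metal chaperones and selenoproteins. With BuOE in flight, an unadjusted p below 0.05 was reached by 2 NADPH genes (lower) and 1 chaperone or selenoprotein gene (higher), and by none in the remaining lists. The median log2 differences were -0.13 for NADPH supply, -0.05 for glutathione supply and use, -0.03 for Nrf2 partners and targets, -0.13 for oxidant producers and -0.03 for chaperones and selenoproteins, beside -0.04 for all genes. On the ground the medians ran from -0.00 to 0.02. With flight under saline they ran from 0.02 to 0.07, and of the 96 genes in the lists 11 were higher (11.5%, against 5.84% of all genes) and 3 lower (3.12%, against 2.95%) at an unadjusted p below 0.05.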

How the data were processed

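Gene expression was profiled by GeoMx digital spatial profiling in 48 AOIs of 12 mice, 3 in each of 4 groups and 4 regions in each mouse. The authors processed reads with the GeoMx NGS Pipeline (2.3.4) and deposited the duplicate-free count of each of 20175 probes, and they deposited tables of this signal after upper-quartile (Q3) normalization for 15782 genes. The common upper quartile, 40.02 in every AOI, puts the regions on one scale, and background was not subtracted. Deposited fold changes and p-values of the authors' own comparisons were not used.

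Members were found by symbol, and all 61 matched a probe. The members, gene lists, naming rule and tests were chosen with earlier results of these data known. limma 3.58.1 was fitted to log2(Q3-normalized count + 1), with the trend of variance on level and adjustment over all 15782 genes by Benjamini-Hochberg: per region on 12 AOIs with 8 residual degrees of freedom, on the mean of the 4 regions of each mouse, and, between regions, on 48 AOIs with the mouse as a random block (consensus correlation 0.0255). Calls needed an adjusted p below 0.05 and more than a 1.5-fold change, with no such limit for the interaction. edgeR 4.0.16 and DESeq2 1.42.0 were run on the deposited counts as alternatives. The limma and edgeR fits were also run on simulated counts with known changes, and the outcome is not given here. The 3 mice of a group shared a slide. In the limma comparisons of groups, p-values measure the spread between mice of the same group, pooled over all 4 groups. Between regions they measure the spread between AOIs of the same region and group, with the AOIs of a mouse treated as almost independent.

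Values in every sample are given for Sod1, Sod2 and Msrb1. For each comparison of BuOE with saline, the 2 members with the smallest p are given as mouse means of the groups compared. The 1 with the smallest p in each region is given for the AOIs compared. Members called between regions are given as region means with SD, and levels for up to 3 of the highest members of each role. Sequences are RefSeq promoters (51 members had an entry), and coordinates are GENCODE's for GRCm38 (60 of 61 members). Depth ran from 322629 to 1579380 counts an AOI, which limits the precision of members near background. Alternatives were other pseudocounts (0.5 and 5), a filter at 1.5 times the negative control, total scaling, no trend, a replicate block, each mouse left out and, added after the data were seen, background subtraction and no fold threshold.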

Additional observations from a re-analysis of the deposited data

How the results depend on the processing

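No member was called in any of the 5 group comparisons, over the regions or on their mean, under every alternative run: pseudocounts of 0.5 and 5, a filter on low values, total scaling, no trend, edgeR, DESeq2 (within regions), only the 2 groups compared, all 48 AOIs with the mouse as a block, each mouse left out, a replicate block, background subtraction and no fold threshold. The replicate block thus gave 0 calls in each. The study's own t-test with permutation q-values, by which it called Msrb1 in CA under saline, was not among the alternatives. Replicate numbers come from the sample titles. Deviations of same-numbered mice correlated between 0.0211 and 0.174 in flight, against -0.168 to 0.143 for other numbers. Under saline they ran from -0.0751 to 0.0633 against -0.162 to 0.117. On the ground same-numbered mice all correlated higher, at 0.065 to 0.0826 against -0.0577 to -0.0141. Under BuOE they did too, at 0.0358 to 0.0755 against -0.0636 to 0.0129. In the order flight, ground, saline and BuOE, 4, 6, 2 and 6 of 6 mice correlated best with their own number. What same-numbered mice shared was not tested. With the replicate block, genes at an adjusted p below 0.05 (limma) went from 133 to 326 for flight under saline, with 0 members. Between hippocampus and cortex the 1 call became 2 with the background subtracted (6.18% of all genes called) and 18 with no fold threshold. Between DG and CA the 1 call became 26 with the background subtracted (38.4% of all genes called), 10 with no fold threshold and 0 with a pseudocount of 5. It ranged from 0 to 1 with a mouse left out. It was 0 with the filter, which removed Txndc12 (1.40 times the negative control) before testing and so could not test its call. Background subtraction takes more from CA than from DG, since the negative control is higher in CA. With the mouse as a fixed replicate block, the counts between regions stayed at 1 and 1, and 0 between CT and FCT. Of 62 log2 differences of named genes under 1256 alternatives, 3 changed sign: Msrb1 with BuOE in flight (-0.12 to 0.00309 with a mouse left out, the latter without FLT-SAL mouse 2), and Gpx1 (0.019) and Txndc15 (0.042) between DG and CA with the background subtracted. Members near the negative control, 35 of 61 under 2 times it, were not read well enough for small differences.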

Other observations

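Of 96 genes of the surrounding pathways, 2 were called between hippocampus and cortex (2.08%, against 3.18% of all genes) and 3 between DG and CA (3.12%, against 4.1%), so the lists were not called more often than genes in general. Mgst3, a microsomal glutathione S-transferase, was lower in the hippocampus than in the cortex by 0.87 on the log2 scale (SE 0.08, adjusted p = 2.5e-18), and Oxr1, an oxidation resistance gene, by 0.75 (SE 0.06, adjusted p = 4.0e-19). Glo1 and Esd, which act in the glutathione-dependent removal of methylglyoxal and formaldehyde, were higher in DG than in CA, by 0.60 (SE 0.10, adjusted p = 3.0e-07) and 0.65 (SE 0.08, adjusted p = 1.0e-10). Selenow, a small selenoprotein, was lower in DG than in CA by 0.68 (SE 0.07, adjusted p = 1.2e-15). The 96 genes are 12 genes of NADPH supply, 21 of glutathione supply and use, 20 Nrf2 partners and targets, 21 oxidant-producing enzymes and 22 metal chaperones and selenoproteins.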
